A study of Mus musculus with 47 samples.

Results

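A set of 9 genes of NF-kB signalling and of the CC chemokine family was followed in the livers of hairless mice that had long-term treatment with sunscreen, ultraviolet radiation (UVR) or both. They were Nfkbia, Tnfaip3, Ccl2, Ccl3, Ccl4, Ccl5, Ccl6, Ccl7 and Ccl9, chosen by gene symbol out of 6889 genes with a symbol of their own, and each of the 9 had 1 probeset. Female albino mice of the SKH:QS strain, inbred, hairless and immune-competent, had entered the study at 8 weeks of age. RNA was taken from whole liver after 36 weeks and 30 treatments. By the study's methods necropsy came about a day after the last irradiation, so that earlier times after UVR were not measured. Each treatment used the organic product (Organic), the TiO2 product (TiO2), the ZnO product (ZnO) or no sunscreen (Control), followed by UVR at about 29 kJ/m2 (+ UVR) or by none (-UVR). The groups were Organic + UVR, Organic-UVR, TiO2 + UVR, TiO2-UVR, ZnO + UVR, ZnO-UVR, Control + UVR and Control-UVR, each with 6 mice except ZnO + UVR, which had 5. All mice, controls included, wore collars during treatment, and mice without sunscreen were sham treated. The TiO2 product also held the organic filters OCM and B-MDM, and the organic product held both of these with 4-MBC and octocrylene, so that the effect of TiO2 alone was not measured. On housing the sources differ, as the labels put every mouse in a cage of its own and the study's methods put the mice of a treatment together. Under shared cages an effect of the cage and one of the treatment cannot be told apart. The ZnO + UVR livers came from those mice of that group that had reached the end of the study. Several mice of Control + UVR also did not reach it. Of the Control + UVR mice that did, the study's histology found a squamous cell papilloma or moderate to severe dermal hyperplasia with inflammation in most.

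NF-kB is a family of transcription factors that is held in the cytoplasm by IkB proteins until the IKK kinase complex marks these for degradation. In the liver it responds to cytokines, microbial products and cell damage, and it switches on its own inhibitors together with chemokines, the secreted proteins that draw leukocytes into tissue. Nfkbia encodes IkB alpha and Tnfaip3 encodes A20, a ubiquitin-editing enzyme that dampens IKK activation, and both are classical feedback targets of NF-kB. Ccl2 and Ccl7 attract monocytes through the receptor CCR2, Ccl3, Ccl4 and Ccl5 act on monocytes and T cells, and Ccl6 and Ccl9 are rodent chemokines that act through CCR1.

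The promoters of Nfkbia and Tnfaip3 are shown first because NF-kB binds DNA at a short motif and both genes are its feedback targets, and those of Ccl9 and Ccl6 because these adjacent chemokine genes differed in whether the motif was found. A promoter window of 250 bases before to 50 bases after the transcription start was given by RefSeq (GRCm38.p6) for 5 of the 9 genes, namely Nfkbia, Tnfaip3, Ccl3, Ccl6 and Ccl9. The windows were searched on both strands for the motif GGG, any 2 bases, then TTTCC, and for a looser form, GGG, any 4 bases, then TCC, which contains the first. The stretches printed here are the 90 bases just before each start, 5′ to 3′ on the minus strand, which is the strand of each of these genes, and capitals mark the match to the stricter motif, which read on the opposite strand in all 3 cases.
Nfkbia, chr12:55492648-55492737: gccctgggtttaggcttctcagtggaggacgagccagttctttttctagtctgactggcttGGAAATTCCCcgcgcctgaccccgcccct
Tnfaip3, chr10:19015411-19015500: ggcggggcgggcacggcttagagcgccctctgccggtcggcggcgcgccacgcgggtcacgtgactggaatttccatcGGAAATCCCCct
Ccl9, chr11:83578637-83578726: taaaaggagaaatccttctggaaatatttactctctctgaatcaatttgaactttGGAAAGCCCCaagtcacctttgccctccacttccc
Ccl6, chr11:83593088-83593177: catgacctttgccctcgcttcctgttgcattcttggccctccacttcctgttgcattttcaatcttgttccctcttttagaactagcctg
The stricter motif began 29 bases before the start of Nfkbia, 12 before that of Tnfaip3 and 35 before that of Ccl9, and these letters were not in the windows of Ccl6 or Ccl3. Across all 32851 mouse promoter windows 1.6% held the stricter motif and 19.2% the looser one. A second window of Tnfaip3, for another start site, held only the looser form. Such a match describes the letters and says nothing of binding in these livers.

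Each mouse had 1 array, 47 in all, of the type Affymetrix Mouse Gene 1.0 ST, and the values are log2 intensities after robust multi-array average (RMA), so that a difference of 1 is a doubling. Beside control probesets the table used here held 9815 transcripts, fewer than the study's methods name for the array. All 9815 entered 1 limma model with group and replicate number as terms and 34 residual degrees of freedom. A listed gene counts as measured where this table held a transcript with its symbol alone, so that the gene lists were covered in part. Shares of transcripts and searches for similar ones cover this table only. The threshold for a call was 0.1 on the p adjusted over all transcripts by the method of Benjamini and Hochberg. Hepatocyte markers were bright on every array, for example Apoa2 at 12.97 to 13.58. Macrophage Lyz2 ranged from 6.17 to 10.47. One array stood apart: the slope of its values on the mean of all arrays was 0.772 in Organic-UVR replicate 1, against 0.895 or more on the others, and values without it are given beside the results it moved. The slope also differed between groups, at 0.984 in Control + UVR and 0.996 in TiO2 + UVR, against 1.027 in Control-UVR (exact permutation tests, two-sided, adjusted p = 0.0378 for both over 7 groups). By the same tests the mean slope was lower still in Organic-UVR, at 0.973 with the array at 0.772 among them (adjusted p = 0.155), and in Organic + UVR, at 0.978 (adjusted p = 0.116). The table gives no detection calls, so that a low value cannot be told from background.

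None of the 9 genes was called by limma in any of 18 comparisons, that is in 162 tests, of which 5 had an unadjusted p under 0.05. With unmoderated variances 0 were called and 3 had an unadjusted p under 0.05. The UVR comparison without sunscreen, Control + UVR minus Control-UVR, called 0.0509% of all transcripts and 0 of the 9 genes, with differences between -0.18 for Ccl9 and 0.2 for Ccl6 on the log2 scale. Against Control-UVR, 1.65% of transcripts were called in Organic + UVR, 3.27% in Organic-UVR, 0.693% in TiO2 + UVR, and 0% in TiO2-UVR, ZnO + UVR and ZnO-UVR. The pooled comparison of the TiO2 and organic products, which share organic filters, with the ZnO and Control groups called 4.94%, and again 0 of the 9 genes. These shares rested in part on single arrays, as 321 transcripts called in Organic-UVR were 66 without its replicate 1, 162 in Organic + UVR were 577 without that array and 0 without Organic + UVR replicate 4, and 5 in Control + UVR were 94 without Organic-UVR replicate 1. In the pooled comparison of products 485 became 1239 without Organic + UVR replicate 1. The 95% intervals of the 9 genes reached from -0.47 to 0.57 in Control + UVR and from -0.67 to 0.7 in Organic-UVR. Put as fold changes, these bounds are 0.72 to 1.48 and 0.63 to 1.62. Between groups of 6 the unadjusted interval extended 0.24 to 0.38 to either side of the estimate, the widest being 1.3-fold. The comparisons with Control-UVR all share its arrays.

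**Figure D1:**
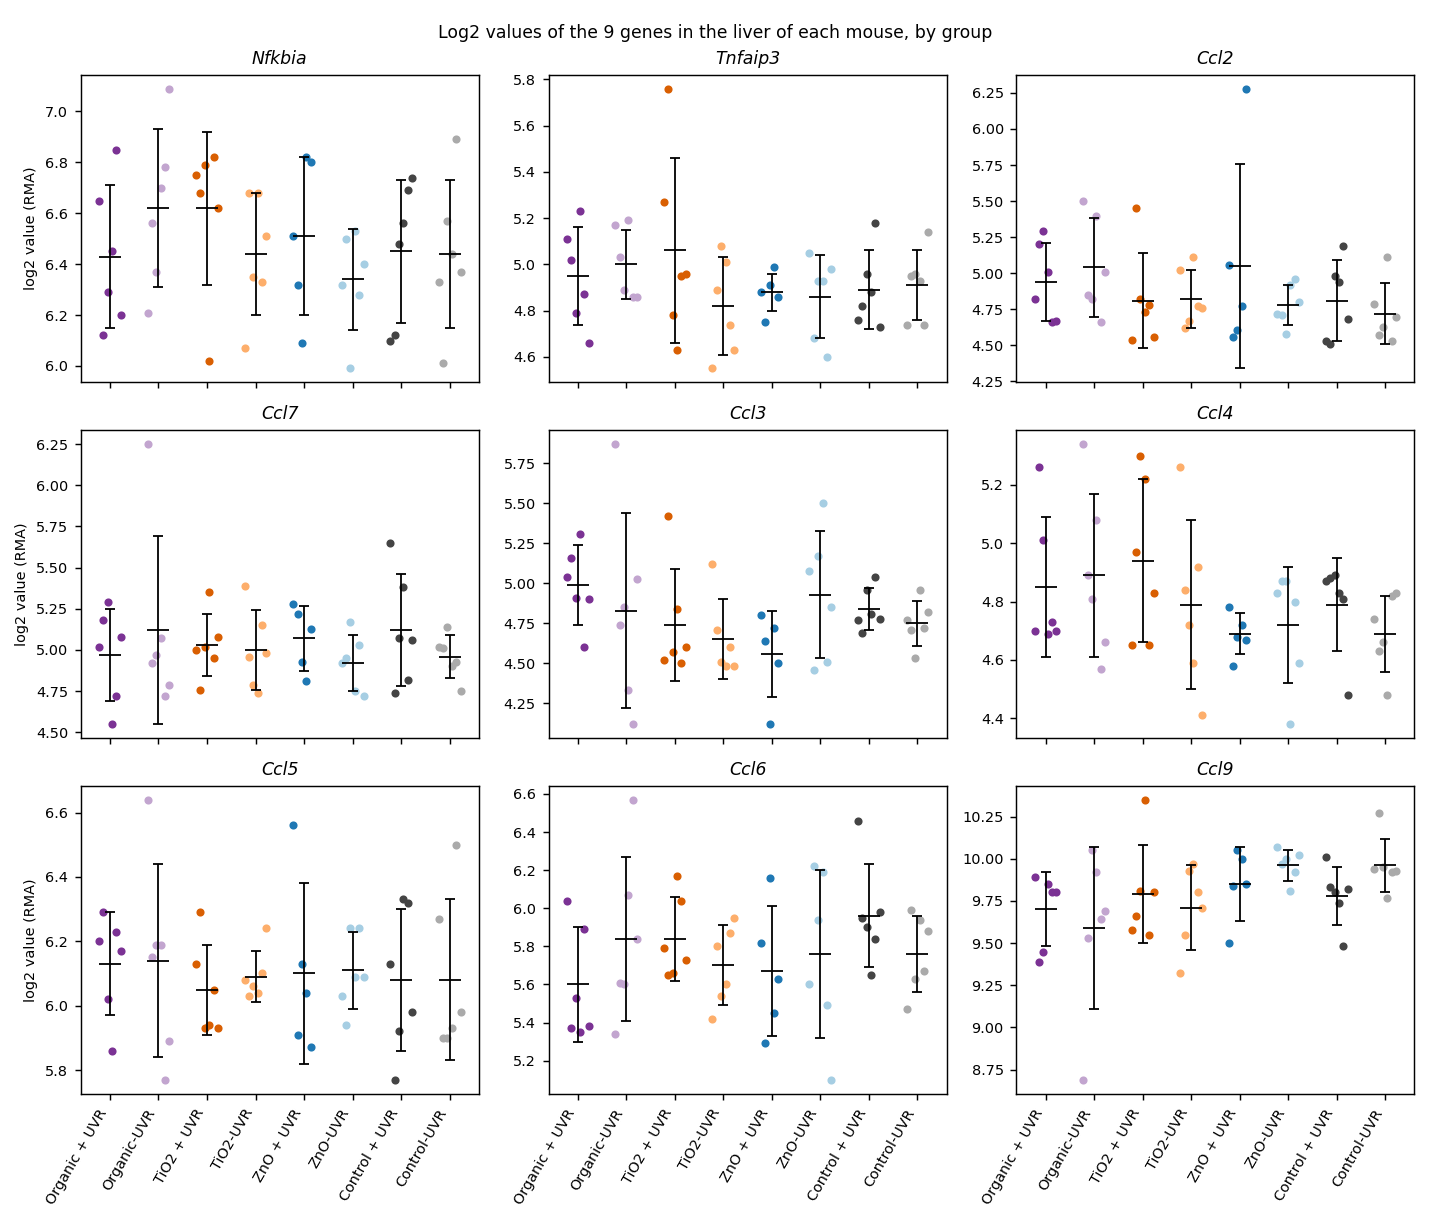
Log2 value (RMA, y axis) of each of the 9 genes in each mouse (points) by group (x axis), with the group mean (bar) and SD (whiskers). Groups overlap in every panel, and single arrays stand out in Organic-UVR, TiO2 + UVR and ZnO + UVR.

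Group means lay closer together than single mice, whose values spanned from 0.87 for Ccl5 to 1.76 for Ccl2 over the 47 arrays. Over the 8 groups the means of a gene spanned from 0.09 for Ccl5 to 0.43 for Ccl3 on the log2 scale. Within groups the pooled SD lay between 0.21 for Tnfaip3 and Ccl5 and 0.34 for Ccl2. The span of means was above the pooled SD for 5 of the 9 genes, by the most for Ccl9 (0.37 beside an SD of 0.26) and Ccl3 (0.43 beside 0.33). It was at or under the SD for Nfkbia, Ccl2, Ccl5 and Ccl7. A span of 8 means and an SD are unlike measures, and means of few mice spread even where groups do not differ. The comparison is therefore no test of a group effect. Neighbours in the order of the 8 means lay at most 0.12 apart, a gap that 8 means within such a span keep small by construction. Differences between groups held 2.2% of the variance of Ccl5 and 21.1% of that of Ccl9, while for the median transcript the share was 14.8%.

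**Figure D2:**
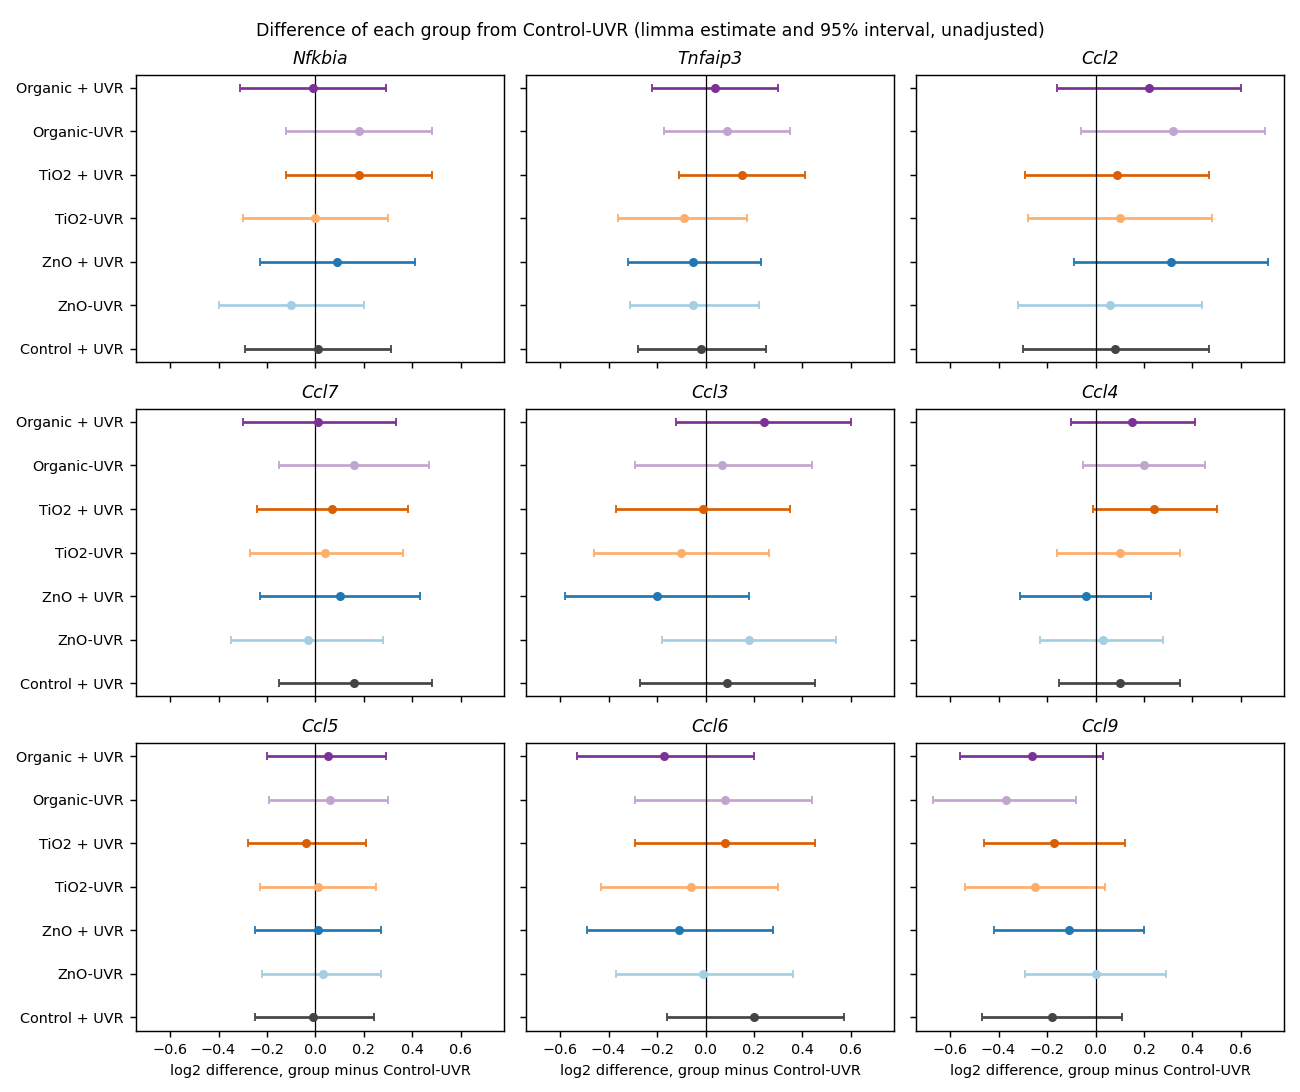
Difference of each group from Control-UVR on the log2 scale (x axis, limma estimate with unadjusted 95% interval) for the 9 genes, by group (y axis). The interval of Ccl9 in Organic-UVR, -0.67 to -0.08, is the one that leaves out 0.

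Of the feedback inhibitors, Nfkbia had its highest means, 6.62, in TiO2 + UVR and Organic-UVR, and its lowest, 6.34, in ZnO-UVR. In Organic-UVR its lowest, median and highest values were 6.21, 6.63 and 7.09. In TiO2 + UVR they were 6.02, 6.72 and 6.82, and in Control-UVR they were 6.01, 6.4 and 6.89. The low value of TiO2 + UVR came from replicate 4 alone, since the other 5 mice lay between 6.62 and 6.82, and all 6 lay within the range of the untreated mice. Nfkbia exceeded Control-UVR by 0.18 in each of these groups (SE 0.15, limma adjusted p = 0.493 in Organic-UVR and 0.711 in TiO2 + UVR), and by 0.25 in Organic-UVR without replicate 1. UVR without sunscreen left it at 6.45 ± 0.28, against 6.44 ± 0.29 in Control-UVR (SD, n = 6 each), and the 95% interval of this difference was -0.29 to 0.31.

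Tnfaip3 was highest in TiO2 + UVR, at 5.06 ± 0.4, against 4.82 ± 0.21 in TiO2-UVR and 4.91 ± 0.15 in Control-UVR (SD, n = 6 each). In TiO2 + UVR replicate 2 had 5.76 and replicate 1 had 5.27, and the other 4 mice lay between 4.63 and 4.96, inside the TiO2-UVR range of 4.55 to 5.08. The UVR difference under the TiO2 product was 0.24 (SE 0.13, adjusted p = 0.822), and its interaction with UVR, the UVR difference under TiO2 minus that without sunscreen, was 0.26 (SE 0.18, adjusted p = 0.724). These comparisons called 0.652% and 0.173% of all transcripts. Leaving out single arrays took the UVR difference to between 0.1 and 0.35. Against Control + UVR the TiO2 + UVR value of Tnfaip3 was the largest of the 9 genes at 0.17 (adjusted p = 0.816), in a comparison that called 0.703% of transcripts, and it was 0.02 to 0.28 with single arrays left out.

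The monocyte chemokine Ccl2 had its highest mean in ZnO + UVR, where the 5 mice had 5.06, 4.56, 4.61, 4.77 and 6.28. In ZnO-UVR its lowest, median and highest values were 4.58, 4.76 and 4.96, and in Control-UVR they were 4.53, 4.67 and 5.11. The value of 6.28, in replicate 5, was the highest Ccl2 value of all 47 arrays, and the other 4 mice lay inside the range of untreated mice. The fitted difference of ZnO + UVR from Control-UVR was 0.31 (SE 0.2, adjusted p = 1) and became -0.01 without that mouse. The pooled UVR difference over all 4 sunscreen conditions, which called 0% of transcripts, was 0.06 for Ccl2, the largest of the 9 genes, and -0.02 without that mouse. In Organic-UVR, Ccl2 had 4.66, 4.93 and 5.5 as its lowest, median and highest values. That group's difference of 0.32 from Control-UVR (SE 0.19, adjusted p = 0.338) was 0.21 without replicate 1. Fitted differences that involve ZnO + UVR depart slightly from the difference of the plain means, because that group lacks replicate number 6.

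Ccl7, a second monocyte chemokine that lies next to Ccl2 on chromosome 11, had group means between 4.92 in ZnO-UVR and 5.12 in Control + UVR and Organic-UVR. In Organic-UVR replicate 1 had 6.25, and the other 5 mice lay between 4.72 and 5.07. In Control + UVR the values reached from 4.74 to 5.65, against 4.75 to 5.14 in Control-UVR. The difference in Organic-UVR was 0.16 with that array and -0.03 without it. The difference in Control + UVR was 0.16 (SE 0.16, adjusted p = 0.652).

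Ccl3 attracts monocytes and T cells and had the widest span of group means. ZnO + UVR had the lowest mean, with 4.8, 4.64, 4.12, 4.72 and 4.5 in its 5 mice, and in ZnO-UVR the lowest, median and highest values were 4.46, 4.96 and 5.5. The groups overlapped, with 4 of the 6 ZnO-UVR mice, at 4.85 to 5.5, above every ZnO + UVR mouse and the other 2, at 4.46 and 4.51, among them. The difference was -0.38 (SE 0.19, unadjusted p = 0.05, adjusted p = 1), in a comparison that called 0% of transcripts, and it lay between -0.5 and -0.27 with single arrays left out. The interaction of the ZnO product with UVR was -0.47 for Ccl3 (SE 0.26, adjusted p = 0.985), again with 0% of transcripts called. ZnO-UVR itself differed from Control-UVR by 0.18, and by 0.07 to 0.29 with single arrays left out. The highest mean of Ccl3, 4.99 ± 0.25, was that of Organic + UVR, against 4.75 ± 0.14 in Control-UVR (SD, n = 6 each, adjusted p = 0.483).

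Ccl4, a chemokine for monocytes and T cells and the neighbour of Ccl3 on chromosome 11, had its 3 highest means in TiO2 + UVR, Organic-UVR and Organic + UVR. Ccl4 was dim, with a mean of 4.8 over the 47 arrays beside a median of 4.31 over the control probesets. In TiO2 + UVR its lowest, median and highest values were 4.65, 4.9 and 5.3, and in Organic-UVR they were 4.57, 4.85 and 5.34. In Control-UVR they were 4.48, 4.7 and 4.83. Of the TiO2 + UVR mice 3 of 6, at 4.97, 5.22 and 5.3, lay above all untreated mice, and the others lay among them. The difference of TiO2 + UVR from Control-UVR was 0.24 (SE 0.13, unadjusted p = 0.061, adjusted p = 0.518). Across the products with organic filters, Ccl4 averaged 4.87, against 4.72 in the ZnO and Control groups, a difference of 0.15 (SE 0.06, unadjusted p = 0.0223, adjusted p = 0.182). It passed the threshold when TiO2 + UVR replicate 1 was left out (0.17, adjusted p = 0.0885), and was 0.13 without Organic-UVR replicate 1 (adjusted p = 0.281). Over the alternatives other than left-out arrays it lay between 0.08 and 0.15, with limma adjusted p up to 0.616. At an unadjusted p under 0.05 this comparison held 2 of the 9 genes, Ccl4 and Ccl9, and 19.6% of all transcripts, which was 16% without Organic-UVR replicate 1.

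Ccl5, a chemokine made largely by T and NK cells, had the most even means, from 6.05 in TiO2 + UVR to 6.14 in Organic-UVR, with 6.08 in Control-UVR. Its values over the 47 arrays ran from 5.77 to 6.64. None of its differences from Control-UVR exceeded 0.06 in size, and the 95% interval was -0.25 to 0.24 in Control + UVR.

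Ccl6, a macrophage chemokine of rodents, had its highest mean in Control + UVR and its lowest in Organic + UVR. In Organic + UVR its lowest, median and highest values were 5.35, 5.46 and 6.04. In Control + UVR they were 5.65, 5.93 and 6.46, and in Control-UVR they were 5.47, 5.78 and 5.99. In Organic + UVR 4 of 6 mice, at 5.35 to 5.53, lay below every Control + UVR mouse, and the other 2, at 5.89 and 6.04, lay within that group. The difference of Organic + UVR from Control + UVR was -0.37 (SE 0.18, unadjusted p = 0.0494, adjusted p = 0.683), in a comparison that called 0.0611% of transcripts, and -0.47 to -0.25 with single arrays left out. Organic + UVR differed from Organic-UVR by -0.24 (adjusted p = 0.998, 0% of transcripts called), and the interaction of the organic product with UVR was -0.44 (SE 0.26, adjusted p = 0.702, 0% called). Without Organic-UVR replicate 1 these were -0.35 and -0.55. ZnO + UVR lay -0.31 from Control + UVR (adjusted p = 0.815, 0% called). Control + UVR differed from Control-UVR by 0.2 (SE 0.18, adjusted p = 0.632), which did not pass the test and lay between 0.08 and 0.28 with single arrays left out.

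Ccl9 had the smallest p of the 9 genes, and its mean was lower than in Control-UVR in every treated group except ZnO-UVR, where both means were 9.96. In Organic + UVR its lowest, median and highest values were 9.39, 9.8 and 9.89. In Organic-UVR they were 8.69, 9.67 and 10.05, and in Control-UVR they were 9.77, 9.94 and 10.27. In Organic-UVR 4 of 6 mice, at 8.69 to 9.69, lay below every untreated mouse, and the other 2, at 9.92 and 10.05, lay among them. The difference from Control-UVR was -0.37 in Organic-UVR (SE 0.14, unadjusted p = 0.0131, limma adjusted p = 0.156), -0.26 in Organic + UVR (adjusted p = 0.331), and -0.25 in TiO2-UVR (adjusted p = 0.968). The value in Organic-UVR rested in part on replicate 1, the array that stood apart, and was -0.21 without it (adjusted p = 0.678), while without replicate 3 it was -0.46 and passed the threshold (adjusted p = 0.0811).

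Across the products with organic filters Ccl9 averaged 9.7, against 9.89 in the ZnO and Control groups, a difference of -0.19 (SE 0.07, unadjusted p = 0.012, limma adjusted p = 0.142). This difference lay between -0.22 and -0.15 with single arrays left out and was -0.15 without Organic-UVR replicate 1 (adjusted p = 0.222). It was past the threshold without Organic-UVR replicate 3 (adjusted p = 0.0882), without Organic + UVR replicate 1 (adjusted p = 0.0676) or with array weights (adjusted p = 0.0571). Over the alternatives other than left-out arrays it lay between -0.19 and -0.12, with limma adjusted p up to 0.505. Array weights also took Ccl9 past the threshold in Organic + UVR (-0.32, adjusted p = 0.0705), where they called 1460 transcripts. Over the same alternatives the Ccl9 difference from Control-UVR lay between -0.32 and -0.14 in Organic + UVR (adjusted p up to 0.851). In Organic-UVR it lay between -0.37 and -0.18 (adjusted p up to 0.58). The summed log2 values of the 6 hepatocyte markers measured, of 16 listed, ranged from 73.5 to 76.7 in Organic-UVR, against 75.6 to 76.4 in Control-UVR, and no marker of that list was called. Without Organic-UVR replicate 1 the range in that group was 75.7 to 76.7. The part of liver cell content in the Ccl9 values was not tested. In whole liver, fewer cells of a type and less RNA per cell cannot be told apart.

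**Figure D3:**
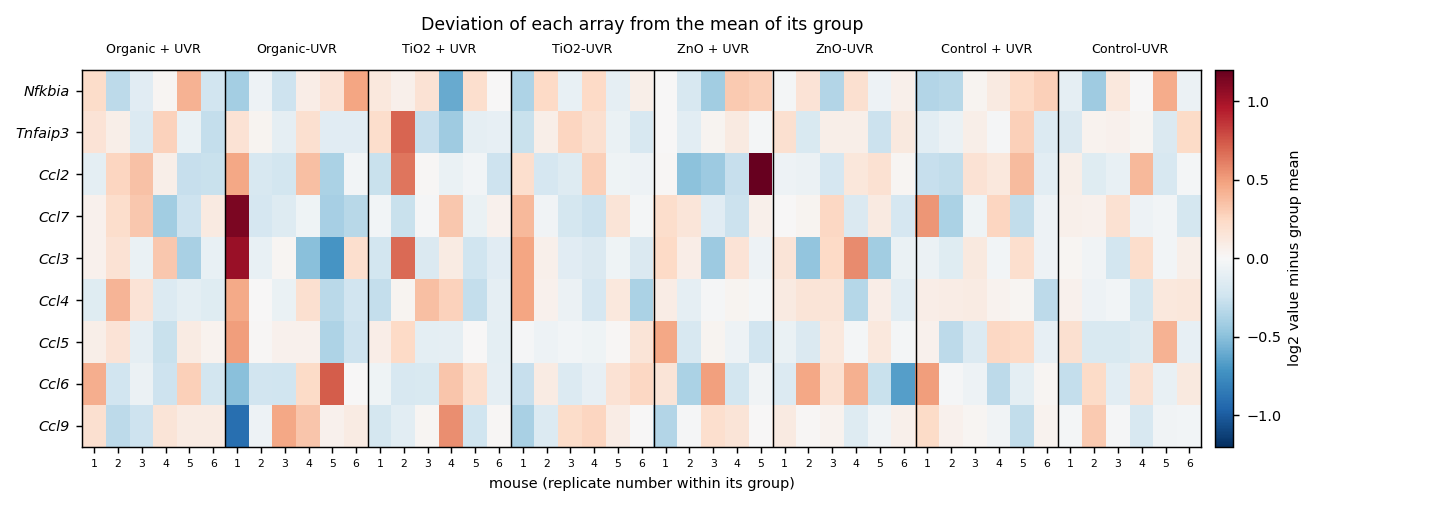
Log2 value minus the mean of the mouse's own group (colour scale) for the 9 genes (rows) in the 47 mice (columns, by group and replicate number). Organic-UVR replicate 1 is high for Ccl2, Ccl7, Ccl3, Ccl4 and Ccl5 and low for Nfkbia, Ccl6 and Ccl9.

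Several mice were at the edge of their own group for most of the 9 genes. Organic-UVR replicate 1 was the highest of its group for 5 chemokines, with Ccl2 at 5.5, Ccl3 at 5.87, Ccl4 at 5.34, Ccl5 at 6.64 and Ccl7 at 6.25, and the lowest for Nfkbia at 6.21, Ccl6 at 5.34 and Ccl9 at 8.69, so that it was at the edge for 8 of the 9 genes. TiO2-UVR replicate 1, whose slope was 0.909, had the same pattern for 6 of these genes, highest for Ccl3 at 5.12, Ccl4 at 5.26 and Ccl7 at 5.39, and lowest for Nfkbia at 6.07, Ccl6 at 5.42 and Ccl9 at 9.32. TiO2 + UVR replicate 2 was the highest of its group for Tnfaip3 at 5.76, Ccl2 at 5.45, Ccl3 at 5.42 and Ccl5 at 6.29, and the lowest for Ccl6 at 5.65 and Ccl7 at 4.76. Organic-UVR replicate 5 was at the edge for 7 genes, lowest for Tnfaip3 at 4.86, Ccl2 at 4.66, Ccl3 at 4.12, Ccl4 at 4.57, Ccl5 at 5.77 and Ccl7 at 4.72, and highest for Ccl6 at 6.57. Organic + UVR replicate 4 was at the edge for 6, lowest for Ccl4 at 4.69, Ccl5 at 5.86, Ccl6 at 5.35 and Ccl7 at 4.55, and highest for Tnfaip3 at 5.23 and Ccl3 at 5.31. In ZnO + UVR replicate 5, by contrast, Ccl2 was the only gene of the 9 that was highest of its group. Nfkbia, at 6.8, was close to the highest of that group, 6.82, and Ccl5 was the lowest at 5.87. Ccl7 at 5.13, Ccl3 at 4.5 and Tnfaip3 at 4.86 were within the values of the group.

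**Figure D4:**
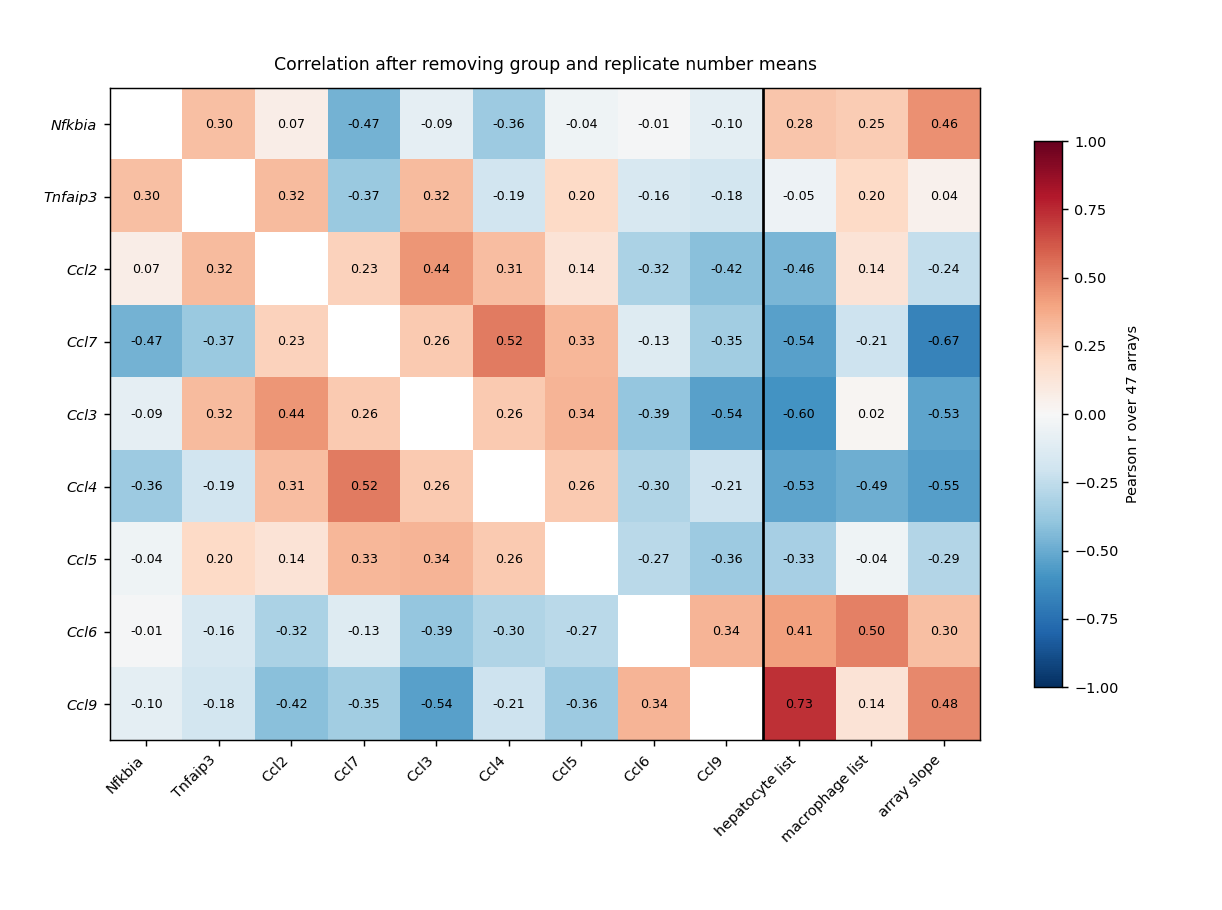
Pearson r over 47 arrays (colour and number) between the 9 genes, and with the mean of the hepatocyte and macrophage marker lists and the array slope, after group and replicate number means were removed. Ccl2, Ccl7, Ccl3, Ccl4 and Ccl5 correlate positively with each other, at 0.14 to 0.52, and negatively with Ccl9, at -0.21 to -0.54, and without Organic-UVR replicate 1 these ranges are -0.08 to 0.43 and -0.34 to 0.

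Mice of the same group varied together in part. With group and replicate number means removed, Ccl4 and Ccl7 had r = 0.52 (rho = 0.51) and Ccl2 and Ccl3 r = 0.44 (rho = 0.35) over 47 arrays, given as a description since both values of a pair come from the same array. All pairs among Ccl2, Ccl3, Ccl4, Ccl5 and Ccl7 were positive, but without Organic-UVR replicate 1 the pair of Ccl3 and Ccl7 had -0.08, and Ccl4 and Ccl7 had 0.43. Ccl6 and Ccl9, adjacent genes on chromosome 11, had r = 0.34, and 0.22 without that array. Ccl9 ran opposite to Ccl3 (r = -0.54) and Ccl2 (r = -0.42), and these were -0.34 each without Organic-UVR replicate 1, while Ccl7 with Ccl9 was -0.35 with that array and 0 without it, and Ccl4 with Ccl9 was -0.21 with it and -0.03 without. The feedback genes Nfkbia and Tnfaip3 had r = 0.3. Nfkbia ran opposite to Ccl7 (r = -0.47) and Ccl4 (r = -0.36), and these were -0.43 and -0.32 without Organic-UVR replicate 1. Tnfaip3 also ran opposite to Ccl7 (r = -0.37), and more so without that array (r = -0.58).

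The array slope moved with several of the genes. It had r = -0.67 with Ccl7, -0.55 with Ccl4, -0.53 with Ccl3, 0.48 with Ccl9 and 0.46 with Nfkbia. Without Organic-UVR replicate 1 these were -0.44, -0.48, -0.29, 0.14 and 0.43, and the part of the slope in the shared variation of the genes was not tested. Ccl9 had r = 0.73 with the mean of the hepatocyte list, 0.57 without that array, and 0.14 with the macrophage list. Ccl6 had r = 0.5 with the mean of the 7 macrophage markers measured, and 0.48 without that array. Values of like size arose with other lists. Ccl7 had r = 0.72 with the B and plasma cell list, 0.58 without that array, and Ccl4 had -0.64 with the endothelial list. Ccl5 had r = 0.42 with the B and plasma cell list and 0.2 with the T and NK cell list. Such a correlation does not assign a gene to a cell type.

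For each gene the 2 most similar transcripts were sought among 6888 others, by Pearson r over the 47 arrays after the same step. The closest was Hsd11b1, which regenerates active glucocorticoid in the liver, for Ccl9 (r = 0.89, and 0.83 without Organic-UVR replicate 1), followed by the translation elongation factor gene Eef1b2 (r = 0.83, and 0.74 without it). Ccl6 was most similar to Wfdc17, a small secreted protein gene of macrophages with 2 protein-coding genes between it and Ccl6 on chromosome 11 (r = 0.78), and to Pla2g4a, a cytosolic phospholipase (r = 0.7). Nfkbia was most similar to Ppara, the nuclear receptor of fatty acid oxidation (r = 0.72), and Cnppd1 (r = 0.7). Tnfaip3 was most similar to Rhbdf2, needed for the release of TNF from cells (r = 0.59), and the calcium sensor gene Hpcal1 (r = 0.52). Of these 8 partners, Hsd11b1 and Eef1b2 correlated with the array slope at 0.65 each, Ppara at 0.64 and Cnppd1 at 0.68, and the other 4 at -0.03 to 0.31.

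Partners of the remaining 5 chemokines included several genes known chiefly from other tissues. Ccl7 was closest to Mir365-1 (r = 0.78) and the pheromone receptor gene Vmn1r195 (r = 0.77), and Ccl4 to Ankrd36 (r = 0.7) and the hair keratin-associated gene Krtap3-2 (r = 0.69). Ccl3 was closest to Cdca7l (r = 0.69) and Kcnmb4os1 (r = 0.67), Ccl5 to Fam135b (r = 0.66) and the autophagy gene Dram1 (r = 0.62), and Ccl2 to D130052B06Rik (r = 0.62) and the olfactory receptor gene Olfr281 (r = 0.55). Of these 10 partners, Dram1 correlated with the array slope at -0.12 and D130052B06Rik at -0.37, and the other 8 at -0.58 to -0.76. Without Organic-UVR replicate 1 the 10 correlations with their chemokine lay between 0.5 and 0.75, with Vmn1r195 at 0.64 and Kcnmb4os1 at 0.56.

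Beside the 9 genes, the pathway upstream was searched for changes. Of 39 listed genes of the IKK complex, its adaptors and receptors, 12 were measured and 1 was called in any comparison. This was Tab2, the adaptor that ties the kinase TAK1 to ubiquitin chains on the way to IKK activation. In Organic + UVR its lowest, median and highest values were 7.92, 8.41 and 9.59. In Organic-UVR they were 8.26, 8.59 and 9.17, in TiO2 + UVR they were 8.04, 8.44 and 9.26, and in Control-UVR they were 9.02, 9.35 and 9.76. In each of these 3 treated groups 5 of 6 mice lay below the lowest untreated mouse and 1 lay among the untreated. In Control + UVR 4 of 6 mice lay below the lowest untreated mouse, with 8.71, 8.91 and 9.43 as the lowest, median and highest values. Tab2 was lower than in Control-UVR by limma in TiO2 + UVR (-0.89, SE 0.17, adjusted p = 0.00586), Organic-UVR (-0.78, SE 0.17, adjusted p = 0.0144, and -0.69 with adjusted p = 0.0521 without replicate 1) and Organic + UVR (-0.83, SE 0.17, adjusted p = 0.0366). The difference in Control + UVR, -0.39, was not called (SE 0.17, unadjusted p = 0.0243, adjusted p = 0.319). Against Control + UVR, Tab2 was not called in TiO2 + UVR (-0.49, adjusted p = 0.259) or in Organic + UVR (-0.44, adjusted p = 0.473).

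Tab2 also fell in TiO2 + UVR against TiO2-UVR, whose 6 mice lay between 9.04 and 9.67 (-0.73, SE 0.17, adjusted p = 0.0243), and in the products with organic filters against the rest (-0.49, SE 0.09, adjusted p = 0.000501). The differences in TiO2 + UVR from Control-UVR and in the pooled comparison passed the threshold under every alternative run. The other 3 did not when the compared groups were fitted alone, with adjusted p of 0.113 in Organic-UVR, 0.117 in Organic + UVR and 0.12 against TiO2-UVR. The call in Organic + UVR was also lost with quantile normalisation, when Organic + UVR replicate 4 was left out (adjusted p = 0.197) and when Control-UVR replicate 4 was (adjusted p = 0.104), and the call against TiO2-UVR without TiO2 + UVR replicate 6 (adjusted p = 0.155) or without the replicate block (adjusted p = 0.198). In ZnO + UVR the 5 mice had 9.86, 9.6, 9.54, 9.02 and 8.88.

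**Figure D5:**
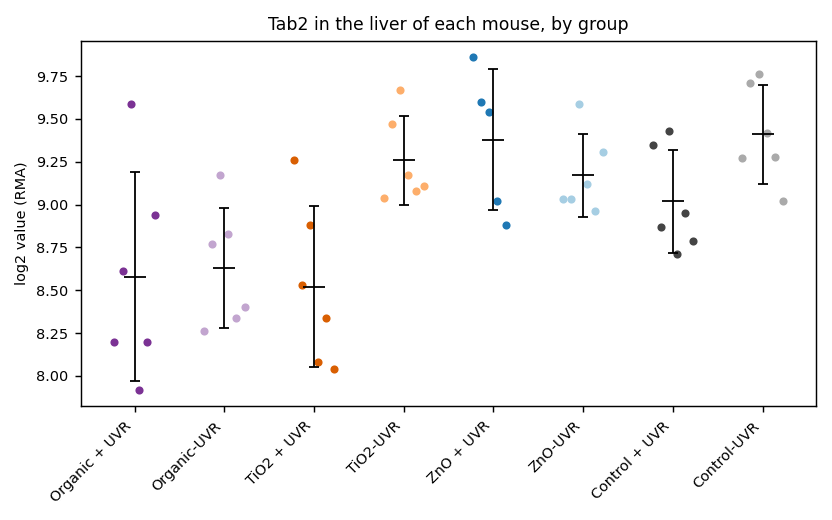
Log2 value (RMA, y axis) of Tab2 in each mouse (points) by group (x axis), with the group mean (bar) and SD (whiskers). Means are 8.58 in Organic + UVR, 8.63 in Organic-UVR and 8.52 in TiO2 + UVR, against 9.41 in Control-UVR.

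Among other CC chemokines, 12 of 19 listed genes were measured, and Ccl20, which attracts cells bearing CCR6, was called once. Ccl20 was dim, with a mean of 4.23 over the 47 arrays beside a median of 4.31 over the control probesets. The filter on dim transcripts, at 4.92, left it out. It was higher by 0.2 in the products with organic filters against the rest (SE 0.06, adjusted p = 0.0854), with adjusted p up to 0.141 when single arrays were left out and 0.129 without Organic-UVR replicate 1. That call was also lost without the replicate block (adjusted p = 0.164), with quantile normalisation (adjusted p = 0.217) and with the array slope as covariate (adjusted p = 0.319). Ccl11, the eosinophil chemokine, had 6.61 in Organic-UVR replicate 1 and 5.17 to 5.75 in the other 5 mice of the group, against 4.85 to 5.48 in Control-UVR, a difference of 0.42 (SE 0.15, adjusted p = 0.129) that was 0.24 without that array (adjusted p = 0.594).

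The other pathway lists held no gene called by limma in any comparison. Of NF-kB subunits and IkB proteins 2 of 11 were measured, Nfkbia and Rel. Of inhibitors and deubiquitinases 3 of 10 were measured, and Tnip1, a partner of A20, had the smallest p, at -0.22 in Organic-UVR (adjusted p = 0.258), and -0.25 without replicate 1. Of NF-kB target genes other than chemokines 12 of 31 were measured, and Ptgs2, which encodes the inducible cyclooxygenase, had the smallest p, at 0.42 in Control + UVR (SE 0.16, adjusted p = 0.29). Of other chemokine families 3 of 17 were measured, with Xcl1, a lymphocyte chemokine, at 0.28 in Control + UVR (adjusted p = 0.441). Of chemokine receptors 7 of 23 were measured, with Cxcr2, a receptor of neutrophils, at -0.63 in ZnO + UVR (SE 0.23, adjusted p = 1). In Organic-UVR an unadjusted p under 0.05 was reached by 3 receptors, 2 CC chemokines, 1 inhibitor and 0 other targets, beside 19.1% of all transcripts, a share that was 9.18% without replicate 1 of that group.

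Among the markers of liver cell types, 3 genes were called. The endothelial adhesion gene Pecam1 fell by 0.66 in Organic + UVR (SE 0.17, adjusted p = 0.072), and the bile duct keratin gene Krt7 rose by 0.57 in Organic-UVR (SE 0.11, adjusted p = 0.00641, and 0.49 without replicate 1) and by 0.37 in Organic + UVR (adjusted p = 0.095). Krt7 was dim, with a mean of 4.65 over the 47 arrays beside a median of 4.31 over the control probesets. The filter on dim transcripts, at 4.92, left Krt7 out, and its low values cannot be told from background. In the products with organic filters Pecam1 fell by 0.28 (adjusted p = 0.0831) and Sox9, a bile duct transcription factor gene, by 0.24 (adjusted p = 0.0834). Calls of Pecam1, of Sox9 and of Krt7 in Organic + UVR were lost when some single arrays were left out, with adjusted p up to 0.259. They were also lost without the replicate block, with adjusted p of 0.108 to 0.176. With the array slope as covariate, adjusted p was 0.268 for Pecam1 and for Krt7 in Organic + UVR. In the products with organic filters it was then 0.366 for Pecam1 and 0.16 for Sox9. Quantile normalisation lost the same calls, with adjusted p of 0.109 to 0.297, except that of Pecam1 in the products with organic filters (adjusted p = 0.0871). The call of Krt7 in Organic-UVR was lost when the compared groups were fitted alone (adjusted p = 0.299). No gene of the hepatocyte, macrophage, T and NK cell, B cell or neutrophil lists was called in any comparison with Control-UVR, the smallest p being those of Apoh (-0.11 in Organic-UVR, adjusted p = 0.561, and 0.01 without replicate 1), Lyz1 (0.57 in ZnO + UVR, adjusted p = 1), Il7r (-0.4 in TiO2-UVR, adjusted p = 0.968), Blk (-0.2 in ZnO + UVR, adjusted p = 1) and Cxcr2. The summed log2 values of the 7 macrophage markers, of 23 listed, ranged from 40.6 to 46.2 in Organic + UVR, against 42.7 to 44.7 in Control + UVR and 43.5 to 46.8 in Control-UVR, and their part in the Ccl6 values was not tested.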

How the data were processed

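The authors hybridised mouse liver RNA to Affymetrix Mouse Gene 1.0 ST arrays and deposited log2 intensities normalised by robust multi-array average. The study's methods put 6 mice in every group, and 47 arrays were analysed here, with 5 of ZnO + UVR. Per the study's methods, chips were processed in batches with 1 chip of each group, and batch effects were removed. Whether the deposited values had that step is not given in the sources used here, and the labels do not say that replicate numbers are batches.

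Of 16383 rows, 6568 control probesets were left out and 9815 transcripts were fitted with limma 3.58.1 in R 4.3.3, with group and replicate number as terms, moderated variances and Benjamini-Hochberg adjustment, called under 0.1. Symbols came from the platform annotation: 7450 transcripts had 1 symbol, 511 several and 1854 none, and 7421 matched RefSeq by Entrez number. Script steps were tested on simulated data.

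The 9 genes, the gene lists and the tests were chosen with earlier results of these data known. The text names the 9 genes, genes of the lists called in any comparison (otherwise the one with the smallest p against Control-UVR), the brightest markers and the 2 transcripts most similar to each gene. Alternatives were no replicate block, quantile normalisation, array weights, the array slope as covariate, a filter on dim transcripts, compared groups alone, unmoderated variances, a threshold of 0.05 and leaving out single arrays. P-values measure the spread between mice. The number of arrays limits precision.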

Additional observations from a re-analysis of the deposited data

Results flagged for a closer look

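Of 72 groups of values tested with Dixon's ratio, 9 held 1 array far from the others, where chance gives about 5% or 3.6, and 7 of these arrays were the highest of their group and 2 the lowest. The high values were Ccl2 at 5.45 and Ccl3 at 5.42 in TiO2 + UVR replicate 2, Ccl9 at 10.35 in TiO2 + UVR replicate 4, Ccl3 at 5.12 in TiO2-UVR replicate 1, Ccl5 at 6.24 in TiO2-UVR replicate 6, Ccl7 at 6.25 in Organic-UVR replicate 1 and Ccl9 at 10.27 in Control-UVR replicate 2. The low values were Nfkbia at 6.02 in TiO2 + UVR replicate 4 and Ccl4 at 4.48 in Control + UVR replicate 6.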

How the results depend on the processing

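None of the 9 genes was called in 1242 tests under alternatives except in 2, both of Ccl9 with array weights, which gave 1 called gene in Organic + UVR and 1 in the products with organic filters. With 1 array left out, 4 of 2979 tests were called, so that the count of called genes ranged from 0 to 1 in Organic-UVR and from 0 to 1 in the products with organic filters. Without ZnO + UVR replicate 5 the Ccl2 difference turned to -0.01 in ZnO + UVR against Control-UVR and to -0.02 in pooled UVR, and over all single arrays left out these ranged up to 0.43 and 0.09. Without the replicate block, called genes of the pathway and cell type lists numbered 1 in Organic + UVR (3 with it), 0 in TiO2 + UVR against TiO2-UVR (1 with it) and 1 in the products with organic filters (4 with it). With quantile normalisation they numbered 0 in Organic + UVR and 2 in the products with organic filters.

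Replicate number was a term of the model, and the sources do not say that it marks a batch. Same-numbered arrays of different groups had a median r of 0.145 over 161 pairs, of which 64% were over 0.1, against -0.032 and 27.6% for different numbers, so that the numbers paired the arrays in part. Counts over all transcripts moved more: 321 in Organic-UVR became 92 without the replicate block, 150 with quantile normalisation, 841 with array weights and 1 with the compared groups alone. In Organic + UVR, 162 became 33, 7, 1460 and 14 under the same settings, and in the products with organic filters 485 became 217, 301, 795 and 485. Array weights took 5 in Control + UVR to 355, 68 in TiO2 + UVR to 392 and 0 in pooled UVR to 231, while over all other settings these lay at 0 to 9, 30 to 114 and 0. With 1 array left out the counts ranged from 66 to 619 in Organic-UVR, from 0 to 1188 in Organic + UVR, from 24 to 162 in TiO2 + UVR and from 257 to 1239 in the products with organic filters. The cause was not tested. Of the 9 genes the filter on dim transcripts left out Ccl2, Ccl3 and Ccl4, and averaging the probesets of a gene was not run, since each had 1. Of 980 values of 33 named differences under alternatives, 861 kept direction and side of the threshold, 111 lost a call, 6 gained one and 2 changed direction. Only differences called in the main fit could lose a call. The share that kept its side therefore does not measure how stable the calls were.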
